A study of Mus musculus with 38 samples.

Results

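Peaks of 17 ChIP-seq lists were examined around Rag1, Rag2 and Ptcra. A peak was taken when its centre lay within 100 kb of the body of 1 of these 3 genes, and each peak was counted once. Of 359759 peaks in all, 231 met this rule, 78 of them around the Rag genes and 153 around Ptcra. The Rag1 and Rag2 windows overlapped and shared 66 of the 78 peaks, so both genes are described as 1 locus. Attribution of a peak to a gene by distance was not tested, and several other genes lie in both windows.

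All samples came from Cas9-LP cells, lymphoid progenitor lines made from fetal livers of Ebf1-deficient mice with a Rosa26-Cas9 knock-in. Loss of Ebf1 blocks the B-lineage program, and every group carried it. The cells were grown with SCF, Flt3L and IL-7 on OP9 stroma, which offers no Notch ligand (LP), or on OP9-DLL4 stroma, which presents the ligand DLL4, for an early (Phase 1) or a later stage (Phase 2). RUNX1, CTCF, the Mediator subunit Med12 and the acetyltransferase p300 were profiled in LP and Phase 1, and the Notch1 intracellular domain (Notch1-IC, a mixture of antibodies) in LP, Phase 1 and Phase 2. Retroviral guides gave a further 6 lists, namely RUNX1 in LP with sgCont or sgCTCF, RUNX1 in Phase 1 with sgCont or sgMed12, and Med12 in Phase 1 with sgCont or sgCbfb, where Cbfb encodes the partner that stabilizes RUNX proteins on DNA. Each list combined 2 replicates, so no spread between replicates could be set against a difference, and no test was made. Peak lists hold no expression values, and the identity of the cells was not checked against marker genes.

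RAG1 and RAG2 form the recombinase that cuts antigen receptor genes at recombination signals. Both genes lie next to each other, point towards each other and are switched on together in developing lymphocytes by shared distal elements. Ptcra encodes pre-Tα, the chain that pairs with a rearranged TCRβ chain to form the pre-TCR, and it has an enhancer upstream of its start that responds to Notch. Notch1-IC does not bind DNA itself but joins the DNA-binding protein RBPJ.

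In mm10, Rag2 (ENSMUSG00000032864) lies at chr2:101624718-101632529 on the plus strand and Rag1 (ENSMUSG00000061311) at chr2:101638282-101649501 on the minus strand. Both sit inside the annotated gene B230118H07Rik, of which Rag1 and Rag2 occupy intronic sequence. Ptcra (ENSMUSG00000036858) lies at chr17:46755663-46763712 on the minus strand, inside an intron of the long noncoding gene Gm26904 on the opposite strand.

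The 2 distal sequences under the Phase 2 Notch1-IC list are shown first, because they were the Notch1-IC peaks away from gene starts at these loci. The first is chr2:101551425-101551597 (plus strand), centred 73.2 kb before the Rag2 start in intergenic sequence. The second is chr17:46767958-46768130 (minus strand, as Ptcra is read), centred 4.33 kb before the Ptcra start. Capitals mark exact matches, on either strand, to the E box strings CAGCTG or CAGGTG, the RUNX strings TGTGGTT or TGCGGTT, the RBPJ string GTGGGAA and its 6-letter core TGGGAA.
Notch1-IC peak before Rag2: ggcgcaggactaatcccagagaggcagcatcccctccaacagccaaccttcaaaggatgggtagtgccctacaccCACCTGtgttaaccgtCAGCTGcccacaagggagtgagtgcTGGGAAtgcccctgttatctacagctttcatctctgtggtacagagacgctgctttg
Notch1-IC peak before Ptcra: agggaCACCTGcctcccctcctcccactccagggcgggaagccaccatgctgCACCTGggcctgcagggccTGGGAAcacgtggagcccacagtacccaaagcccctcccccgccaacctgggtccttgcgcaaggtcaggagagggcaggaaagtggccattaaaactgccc
Both held the 6-letter core, at bases 117 to 122 of the first sequence and at bases 72 to 77 of the second, and each held 2 E box matches. Neither held the 7-letter RBPJ string or a RUNX string. The core was added to the search after the data were seen.

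The 250 bases before each gene's start (RefSeq, GRCm38.p6, the mm10 build) are shown because RUNX1 or Notch1-IC peaks lay there. They are chr2:101649533-101649782 (minus strand) for Rag1, chr2:101624462-101624711 (plus strand) for Rag2 and chr17:46763713-46763962 (minus strand) for Ptcra, with the same capitals.
Rag1 promoter: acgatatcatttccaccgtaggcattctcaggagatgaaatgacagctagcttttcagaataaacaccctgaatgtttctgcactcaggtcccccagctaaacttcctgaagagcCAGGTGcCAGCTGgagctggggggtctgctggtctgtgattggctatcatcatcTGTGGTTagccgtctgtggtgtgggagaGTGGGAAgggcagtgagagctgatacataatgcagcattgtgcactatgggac
Rag2 promoter: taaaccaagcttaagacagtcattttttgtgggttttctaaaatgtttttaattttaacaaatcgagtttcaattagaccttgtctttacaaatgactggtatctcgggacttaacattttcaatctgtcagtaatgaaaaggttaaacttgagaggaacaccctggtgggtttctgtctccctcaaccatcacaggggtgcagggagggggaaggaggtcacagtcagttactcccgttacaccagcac
Ptcra promoter: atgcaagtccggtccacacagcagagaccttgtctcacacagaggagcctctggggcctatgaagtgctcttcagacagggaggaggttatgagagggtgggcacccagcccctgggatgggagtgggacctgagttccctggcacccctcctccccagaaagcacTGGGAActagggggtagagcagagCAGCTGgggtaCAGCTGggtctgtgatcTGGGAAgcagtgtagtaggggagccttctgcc
The Rag1 stretch held 1 RUNX match, 1 RBPJ match and 2 E box matches, the Ptcra stretch 2 RBPJ cores and 2 E box matches, and the Rag2 stretch none of these strings. Among 32851 stretches of the same kind, 5.59% held a RUNX string, 5.42% the RBPJ string, 21.6% its core and 27.7% an E box string. A match describes letters and is not a measured binding site.

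Around the Rag genes, RUNX1 occupied the starts of both genes before and after Notch stimulation, together with Med12 and p300. Each peak carries the authors' peak score, and no list held a score under 15. The score was used to rank peaks within 1 list, to size the dots of the locus figures and, where stated, as a cutoff of 30. Scores of different lists are printed side by side, but whether they share a scale was not checked. At the Rag1 start, the RUNX1 peak had a score of 46.6 in LP (chr2:101649447-101649787) and 84.1 in Phase 1 (chr2:101649453-101649781). These ranked at 50.4% of the LP list and 26.5% of the Phase 1 list, counted from the top. Thus the Rag1 start stood in the middle of 1 list and in the upper part of the other. Med12 was listed there with scores of 18.5 in LP and 46.4 in Phase 1, and p300 with 29.6 and 53.3.

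RUNX1 peaks at the Rag2 start were weaker within their lists. Their scores were 16.9 in LP (chr2:101624506-101624846) and 27.9 in Phase 1 (chr2:101624499-101624827), at 94.8% and 69.4% of the lists. Med12 was listed with scores of 19.8 and 22.4 and p300 with 37.2 and 77.8. No CTCF peak overlapped the start of either gene in either stage.

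Between 25 and 2 kb before Rag2, inside introns of B230118H07Rik, RUNX1 peaks were low-scored and differed between the stages. The peak 24.0 kb before Rag2 was listed in both, with scores of 18.8 in LP (chr2:101600574-101600914) and 23.7 in Phase 1 (chr2:101600520-101600848), and Med12 and p300 overlapped it in both. A peak 2.99 kb before Rag2, at an alternate start of B230118H07Rik, was listed for RUNX1 in LP only (chr2:101621556-101621896, score 21.8). Among the lists without guides, Med12 was listed there in LP only (30.4), whereas p300 was listed in LP (53.3) and Phase 1 (36.3). In those lists p300 thus remained listed in Phase 1 at this site while RUNX1 and Med12 were not. A Phase 1 Med12 peak with sgCbfb was listed there (30.9), but none with sgCont.

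Around the Rag genes 3 RUNX1 peaks were listed in Phase 1 only. They lay 20.5 kb before Rag2 (chr2:101604038-101604366, score 16.4), 8.57 kb before it (chr2:101615979-101616307, score 19.1) and 10.6 kb after its start, between both genes (chr2:101635170-101635498, score 18.7). Phase 1 p300 overlapped the first 2 of these peaks and Med12 none. All 3 scores were close to the list minimum. Sequence is shown for 200 bases around the centre of those that held a RUNX match, chr2:101604103-101604302 and chr2:101635235-101635434 (plus strand).
Peak 20.5 kb before Rag2: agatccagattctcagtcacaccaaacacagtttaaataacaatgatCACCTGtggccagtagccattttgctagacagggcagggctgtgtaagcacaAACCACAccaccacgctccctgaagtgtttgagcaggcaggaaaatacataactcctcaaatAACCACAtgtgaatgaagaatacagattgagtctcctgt
Peak between the Rag genes: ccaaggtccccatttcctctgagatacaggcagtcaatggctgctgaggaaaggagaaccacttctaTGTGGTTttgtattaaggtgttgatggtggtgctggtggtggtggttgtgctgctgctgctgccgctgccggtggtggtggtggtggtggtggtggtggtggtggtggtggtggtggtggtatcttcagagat
The first held 2 RUNX matches and 1 E box match. The second held 1 RUNX match beside a long run of the triplet ggt, a simple repeat.

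Beyond the Rag genes, RUNX1 was listed at the start of Traf6, which encodes a signaling adaptor, with scores of 47.2 in LP (chr2:101678271-101678611) and 43.1 in Phase 1 (chr2:101678294-101678622). CTCF, Med12 and p300 overlapped it in both stages. An LP-only RUNX1 peak of score 17.1 lay in the 3′ untranslated region of Traf6 (chr2:101699274-101699614), where a Phase 1 Med12 peak of 19.3 was also listed. The highest-scored RUNX1 peak of the locus lay 108.0 kb after the Rag2 start in an intron of Prr5l, with scores of 125.2 in LP (chr2:101732777-101733117) and 195.7 in Phase 1 (chr2:101732767-101733095). That site was also the highest for Med12 (128.8 and 251.9) and p300 (202.3 and 332.1) in the window.

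**Figure D1:**
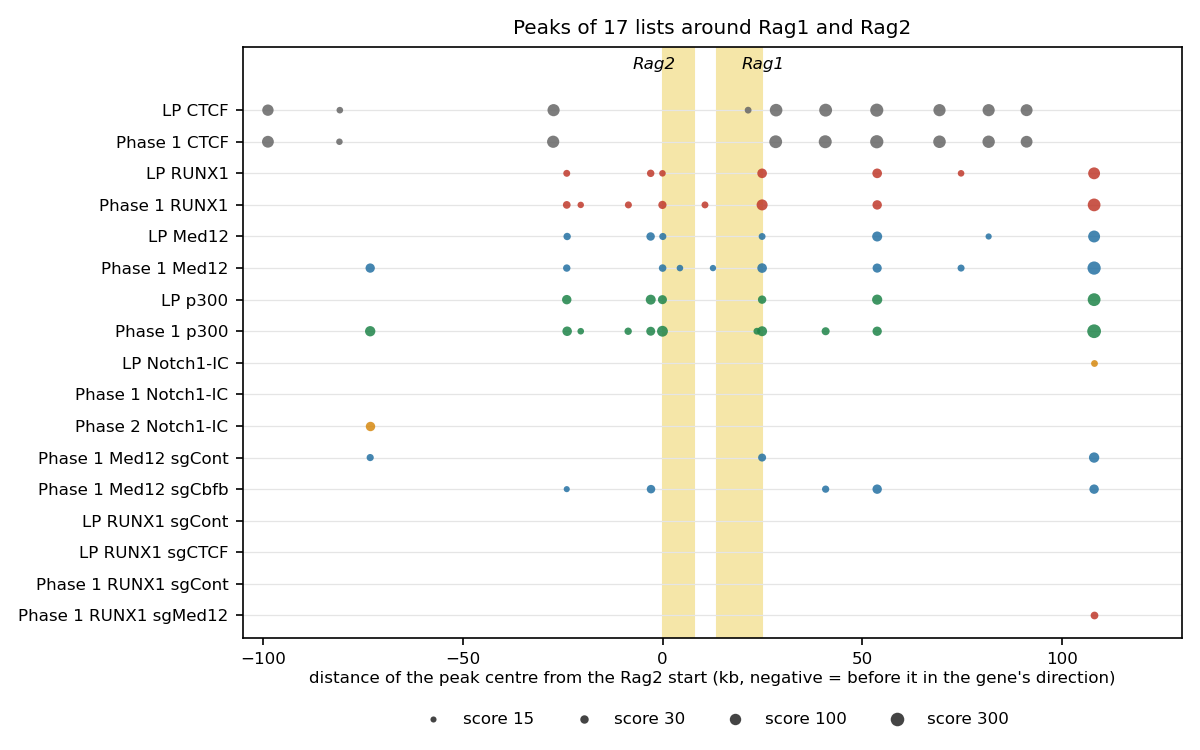
Peaks around Rag1 and Rag2, by list (rows) and by distance of the peak centre from the Rag2 start (x axis, kb); the dot area grows with the logarithm of the peak score, and the shaded bands are the gene bodies. Listed peaks cluster at the gene starts, in the 25 kb before Rag2 and 108.0 kb after its start, and the Phase 2 Notch1-IC peak stands apart at 73.2 kb before it.

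Around Ptcra, the site before the gene carried RUNX1, Med12 and p300 in both stages, while the gene's own start carried none of them. The RUNX1 peak had a score of 149.5 in LP (chr17:46767900-46768240, centred 4.36 kb before the start) and 86.7 in Phase 1 (chr17:46767918-46768246), at 10.6% and 25.6% of the lists from the top. Med12 had scores of 137.8 and 78.8 there, and p300 341.2 and 187.1. The LP p300 score was the highest of that list in both windows. The nearest RUNX1 peak to the Phase 2 Notch1-IC peak at the Ptcra start lay 4.29 kb away in LP and 4.3 kb away in Phase 1.

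RUNX1 was listed 16 times in LP and 17 times in Phase 1 in the Ptcra window, and most of the high-scored peaks lay at the starts of neighbouring genes. The highest was at the start of Cnpy3, which encodes a chaperone of Toll-like receptors, with 304.6 in LP (chr17:46752133-46752473) and 283.6 in Phase 1 (chr17:46752138-46752466). Next in LP were the shared start region of Mea1 and Klhdc3 (201.3, with 148.7 in Phase 1) and the start of Ppp2r5d, a phosphatase 2A subunit (179.7 and 161.8). The starts of Rrp36 (127.7 and 98.1), the peroxisomal gene Pex6 (103.8 and 77.4) and 2310039H08Rik (103.8 and 97.6) followed. All of these starts carried Med12 and p300 in both stages.

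Away from gene starts, 2 further high-scored RUNX1 sites lay in introns of Bicral, a subunit gene of a BAF chromatin remodelling complex. One was 71.8 kb before Ptcra, with 136.8 in LP (chr17:46835366-46835706) and 175.4 in Phase 1 (chr17:46835355-46835683). The other was 89.2 kb before it, with 105.6 (chr17:46852762-46853102) and 48.3 (chr17:46852786-46853114). Stage-specific RUNX1 peaks with a score of 30 or more lay only at the far end of the window. These were a Phase 1 peak of 45.2 at chr17:46857694-46858022 (94.1 kb before Ptcra) and an LP peak of 48.7 at chr17:46858252-46858592 (94.7 kb). The 2 peaks did not overlap but were neighbours, and p300 was listed in both stages over the LP peak. The remaining stage-specific peak, of 28.7 in Phase 1 (chr17:46843120-46843448), lay 79.6 kb before Ptcra with Phase 1 Med12 and p300.

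**Figure D2:**
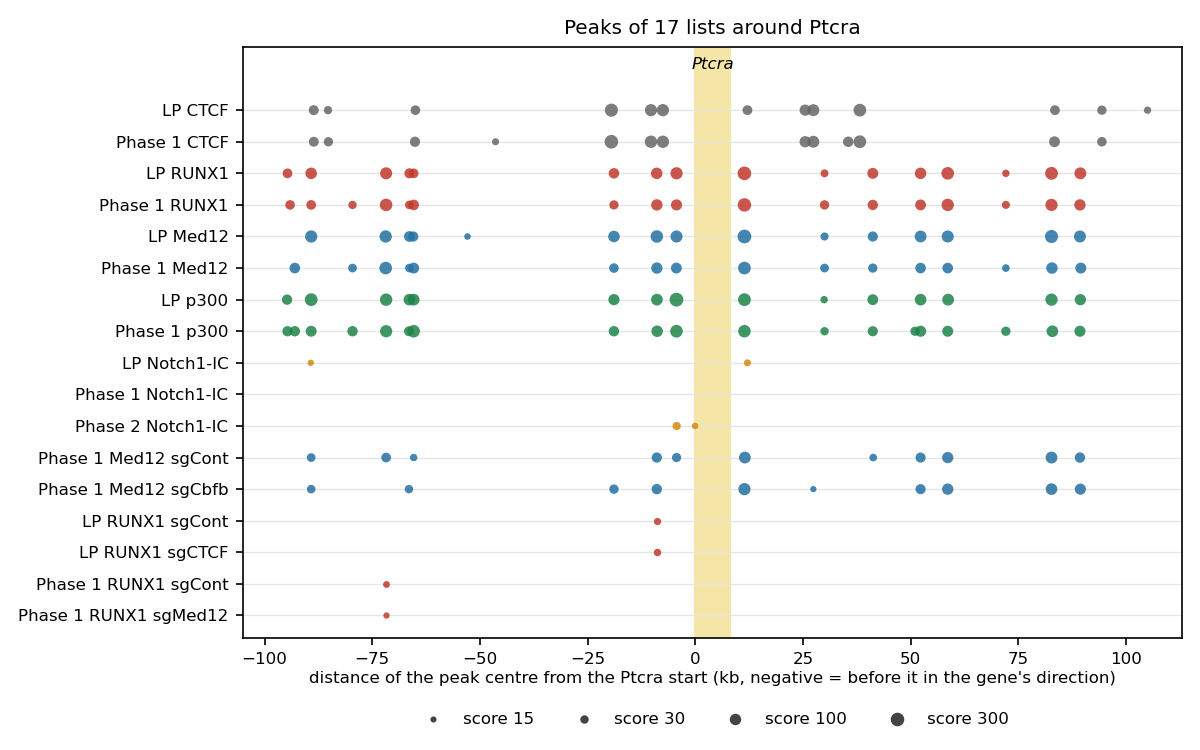
Peaks around Ptcra, by list (rows) and by distance of the peak centre from the Ptcra start (x axis, kb, negative before the gene); the dot area grows with the logarithm of the peak score, and the shaded band is the gene body. RUNX1, Med12 and p300 dots line up 4 to 5 kb before Ptcra and at neighbouring gene starts, and no peak lies in the gene body, and only the Phase 2 Notch1-IC peak lies at its start.

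Merged across lists, the peaks formed 23 sites around the Rag genes and 36 around Ptcra. RUNX1, Med12 and p300 were all listed in both stages at 5 Rag sites, 3 of them promoter sites, and at 13 Ptcra sites, 7 of them promoter sites. No list other than CTCF had a peak at 7 and 12 sites. For all 21938 protein-coding genes the median was 5 LP and 6 Phase 1 RUNX1 peaks per window, against 7 and 8 for Rag1, 6 and 7 for Rag2, and 16 and 17 for Ptcra. As many as the Ptcra number were reached by 8.82% of genes in LP and 8.26% in Phase 1. Gene-rich surroundings such as those of Ptcra hold many promoters, and their part in that count was not tested.

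The question of how occupancy moved with Notch stimulation was put to each factor. In LP, 3 of 23 RUNX1 peaks in the windows had no Phase 1 counterpart (2 of 7 around the Rag genes and 1 of 16 around Ptcra), against 16.8% of the whole list. In Phase 1, 5 of 25 had no LP counterpart (3 of 8 and 2 of 17), against 30.7%. For Med12, 4 of 22 LP peaks and 7 of 25 Phase 1 peaks were listed in 1 stage only, against 19.5% and 38.2%. None of 21 LP p300 peaks was confined to LP, against 20.7% of the list, while 9 of 30 Phase 1 p300 peaks lacked an LP counterpart, against 41.6%. All 9 lay outside promoters, as did 95.6% of all Phase 1 p300 peaks without an LP counterpart. The LP p300 count split into 0 of 11 promoter peaks (interval to 25.9%), against 7.97% of the list, and 0 of 10 elsewhere (to 27.8%), against 25.1%, so that in each class the share of the list lay inside the interval. With so few peaks, all of these shares had wide Wilson intervals (95%, counting error only), for example 8.86% to 39.1% for the 5 Phase 1 RUNX1 peaks. These intervals count neighbouring peaks of the same loci as independent. A share of the list inside or outside an interval is therefore not a test.

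CTCF peaks were mostly shared. Of 23 LP peaks, 3 had no Phase 1 counterpart, against 9.55% of the list, and of 22 Phase 1 peaks, 2 had no LP counterpart, against 8.35%. Around the Rag genes 9 CTCF sites were present in both stages, and the highest were at Traf6 (235.9 in LP and 249.7 in Phase 1), 16.0 kb before Rag1 (210.2 and 219.6) and 3.57 kb before it in LP (180.3), with 202.6 in Phase 1. The only stage-specific CTCF entry there was a weak LP peak of 18.1 in a Rag1 intron (chr2:101645887-101646287). Around Ptcra the highest were near the Rpl7l1 start (232.3 and 311.8) and 38.2 kb after the Ptcra start (190.9 and 193.2), followed by peaks 7.54 kb before Ptcra in LP (149.2) and 10.3 kb before it in Phase 1 (161.0).

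**Figure D3:**
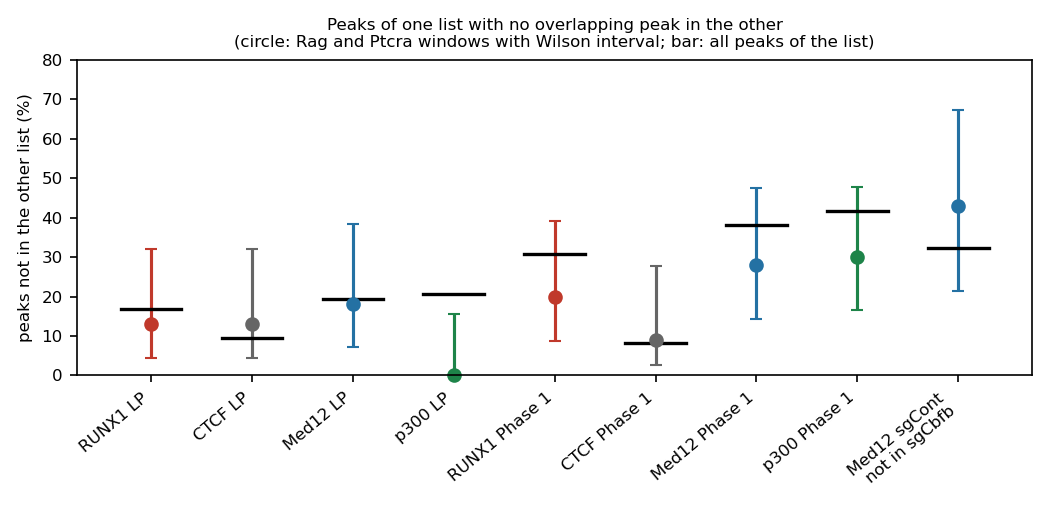
Percentage of peaks in 1 list with no overlapping peak in the other (y axis), for each factor and stage and for Med12 with sgCont against sgCbfb; circles are the Rag and Ptcra windows together with 95% Wilson intervals, and black bars are all peaks of that list. The circle for LP p300 is at 0.0 of 21 peaks with its interval reaching 15.5%, below the bar at 20.7% (with promoter and other peaks taken apart, the share of the list lay inside the interval in both), and in the other 8 columns the bar lies inside the interval. The intervals count neighbouring peaks of the same loci as independent and are not a test.

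Low-scored entries of a single list completed the Rag locus. Phase 1 Med12 was listed 4.33 kb (16.8) and 12.6 kb (16.0) after the Rag2 start, and Phase 1 p300 1.13 kb inside Rag1 (18.4). They were named after their values had been seen.

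The factors found together with RUNX1 were compared next. Of 23 LP RUNX1 peaks, 1 overlapped an LP CTCF peak, at the Traf6 start, against 23.2% of the LP list. At promoters it was 1 of 11 (interval to 37.7%), against 29.6%, and elsewhere 0 of 12 (to 24.2%), against 20.6%. With so few peaks, a difference from the list cannot be read from these counts. In Phase 1, 2 of 25 RUNX1 peaks overlapped a Phase 1 CTCF peak, at the Traf6 start and in a Bicral intron, against 15.7%. Med12 overlapped 20 of 23 RUNX1 peaks in LP and 20 of 25 in Phase 1, against 84.7% and 86.0%. For p300 the numbers were 21 of 23 and 23 of 25, against 90.8% and 87.8%. None of the 3 LP-only RUNX1 peaks lay on an LP CTCF peak, against 36.8% of all LP-only RUNX1 peaks that did, and with 3 peaks nothing can be read from this.

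Notch1-IC was listed at both loci in Phase 2 but at neither in Phase 1, whose list held only 152 peaks. The Phase 1 and Phase 2 Notch1-IC lists used here are shorter than the sets the study describes, so absence from them, and shares over them, hold for these lists only. A Phase 2 Notch1-IC peak was present in the windows of 4.68% of protein-coding genes, and 0.752% had as many as the 2 in the Ptcra window. The peak before Rag2 had a score of 43.2 and rank 58 of 352. It overlapped Phase 1 p300 (chr2:101551377-101551715, 62.1) and Phase 1 Med12 (chr2:101551401-101551727, 41.5). No LP list and no RUNX1 list had a peak there, and the nearest RUNX1 peak in either stage was 49.2 kb away. The peak before Ptcra had a score of 27.9 and rank 104, and RUNX1, Med12 and p300 of both stages overlapped it. The last, at the Ptcra start (chr17:46763695-46763867), had a score of 16.7 and rank 277, and no other list had a peak there.

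Of the 3 Phase 2 Notch1-IC peaks, 1 thus overlapped a Phase 1 RUNX1 peak, against 74.1% of the 352 peaks in that list. Phase 1 p300 and Phase 1 Med12 each overlapped 2 of 3, against 80.1% and 77.3%. None of the 3 Notch1-IC peaks held the 7-letter RBPJ string (26.2% of the list) or a RUNX string (29.4%) in the 200 bp around the centre. All 3 held an E box string (68.8%). All 3 also held the RBPJ core (51.3%), but the core was added after the data were seen. Its share is given as description only. In the sequences printed above, the 4 cores of the 2 distal peaks and the Ptcra promoter were each preceded by a C, whereas the core before Rag1 was preceded by a G. The resulting string CTGGGAA was counted only after this had been seen. The peak at the Ptcra start covers the cores of the printed Ptcra promoter. Presence of the string in all 3 peaks was thus fixed before counting, and its share of the list, 19.8%, is given as description only.

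In LP, without Notch ligand, the Notch1-IC list held 1585 peaks, and 3 of them were in the windows. They lay at the Prr5l site (chr2:101732841-101733047, score 18.1), at the Bicral site 89.3 kb before Ptcra (chr17:46852883-46853089, score 15.9) and in a Cnpy3 intron (chr17:46751526-46751732, score 19.1). The first 2 coincided with RUNX1, and the last lay on an LP-only CTCF peak of 51.0. None held the RBPJ core, which was present in 13.7% of that list, and the RBPJ string in 4.42%, beside 4.23% of the LP RUNX1 list and 36.2% of the Phase 1 Notch1-IC list.

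**Figure D4:**
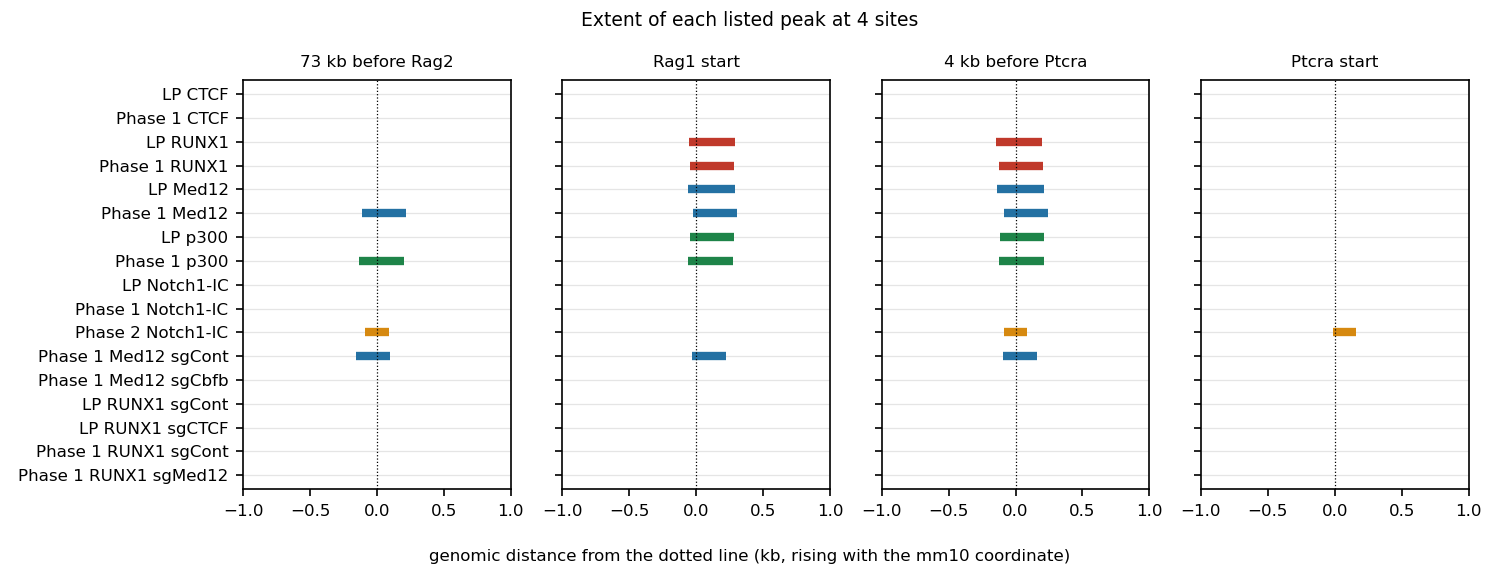
Extent of each listed peak (horizontal bars, colored by factor) within 1 kb of 4 sites, by list; the dotted line is the centre of the Phase 2 Notch1-IC peak in both panels of distal sites and the gene start in the others. Only the site before Ptcra has Notch1-IC and RUNX1 bars together, and the Rag1 start and both distal sites have a Med12 bar with sgCont but none with sgCbfb.

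To see which Med12 peaks were found again after Cbfb was targeted, the Phase 1 Med12 lists with sgCont and sgCbfb were compared. Of 14 sgCont peaks in the windows, 8 had a sgCbfb peak, against 67.8% of the list. At promoters it was 6 of 7, against 92.3%, and elsewhere 2 of 7, against 49.8%. The remaining 6 sgCont peaks were not listed with sgCbfb. Among them were the Rag1 start (26.1, chr2:101649469-101649723), which was the 1 promoter peak, the Notch1-IC site before Rag2 (20.1, chr2:101551357-101551611) and the site before Ptcra (39.9, chr17:46767949-46768203). The others were in a Pex6 intron (23.3) and at the Bicral sites 65.4 kb (21.5) and 71.8 kb (47.9) before Ptcra. The scores of 26.1, 20.1, 23.3 and 21.5 lay below the median of the sgCont list, 35.4, and those of 39.9 and 47.9 above it. At a minimum score of 30, these lower-scored peaks drop out and the 8 found again stay 8. Absence of a low-scored peak from the sgCbfb list therefore says little. The peaks of 39.9, before Ptcra, and 47.9, in Bicral, stayed above that cutoff and had no sgCbfb peak. The nearest sgCbfb Med12 peak was 15.9 kb from the Rag1 start peak, 49.2 kb from the Notch1-IC site before Rag2 and 4.62 kb from the site before Ptcra.

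Both Phase 2 Notch1-IC peaks that met a sgCont Med12 peak lacked a sgCbfb one, against 62.3% of 228 such peaks. Some peaks were listed with sgCbfb only. Of 15 sgCbfb Med12 peaks, 8 had a sgCont peak, against 71.4%. At promoters it was 6 of 9, against 92.4%, and elsewhere 2 of 6, against 54.3%. The 7 listed with sgCbfb only included the sites 24.0 kb (score 15, at the list minimum) and 2.91 kb (30.9) before Rag2, the Traf6 start (42.8) and a CTCF site 16.0 kb before Rag1 (20.6). Around Ptcra they were at the Rpl7l1 start (42.6), in Bicral 66.5 kb before Ptcra (30.4) and at a CTCF site in the 3′ end of Cnpy3 (15.5). Without guides, Phase 1 Med12 was also listed 24.0 kb before Rag2, at the Traf6 and Rpl7l1 starts and at that Bicral site. It was not listed at the others. The list without guides held 39132 peaks and the sgCont list 19053, so absence from the shorter sgCont list says little. The 8 listed with both guides were the Prr5l site, the Bicral site 89.2 kb before Ptcra (sgCont 33.1, sgCbfb 31.3) and the starts of Cnpy3, Mea1, Ppp2r5d, Pex6, Rrp36 and 2310039H08Rik. The Med12 peak at the Rag2 start, present without guides in both stages, was listed with neither.

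RUNX1 lists with guides were short, from 874 to 2094 peaks, so a missing entry says little. In LP, RUNX1 was listed at the 2310039H08Rik start with sgCont (20.5) and with sgCTCF (21.7), so 1 of 1 was found again, against 59.1% of the list. In Phase 1, the Bicral site 71.8 kb before Ptcra was listed with sgCont (18.2) and sgMed12 (15.6), again 1 of 1, against 71.0%. With sgMed12 the Prr5l site was listed as well (23.9). No guide list had a RUNX1 peak at the starts of Rag1 or Rag2 or at the site before Ptcra.

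In the 200 bp around the peak centre, a RUNX string was present in 1 of 23 RUNX1 peaks of the windows in LP and 3 of 25 in Phase 1, against 21.2% and 25.4% of the lists. The bearers were the Rag1 start in both stages and the 2 Phase 1-only peaks shown above. No RUNX1 peak around Ptcra held one in those 200 bp, but with 300 bp searched 1 in LP and 2 in Phase 1 did, and the shares of the lists were then 23.9% and 27.9%. Promoter peaks made up 11 of the 23 and 10 of the 25, against 9112 of 31995 and 9244 of 38399 in the lists. The string counts were not split by promoter, and with so few peaks a difference from the lists cannot be read from them. An E box string was present in 8 of 23 and 8 of 25, against 33.2% and 30.2%.

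Other genes of the same processes were counted in the same way. Of 12 genes that encode the terminal transferase, end-joining factors or HMGB cofactors of V(D)J recombination, 10 had a RUNX1 peak within 1 kb of the start in LP and in Phase 1, against 45.2% and 45.9% of protein-coding genes, and 10 had a Phase 1 Med12 peak there, against 44.4%. The exceptions were Dntt, the terminal transferase, and Xrcc6, which encodes Ku70. All 10 were listed for Med12 with sgCont and with sgCbfb, where 92.3% of all promoter peaks of the sgCont Med12 list had a sgCbfb peak. Phase 2 Notch1-IC was in the windows of 2 of the 12, Xrcc6 and Hmgb1, against 4.68% of protein-coding genes. The same 2 windows held Phase 1 Notch1-IC, against 2.84%, and LP Notch1-IC was in 7 of the 12, against 18.9%. Windows grow with gene length, and with 12 genes no difference from these shares was tested. Of the surrogate light chain genes Vpreb1 and Igll1, Vpreb1 had RUNX1 and Med12 at its start, and neither had Notch1-IC in its window.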

How the data were processed

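Mouse ChIP-seq peaks were analysed for 38 samples in 19 groups of 2, of which 17 groups had a peak list and 2 were inputs. Per the labels and the study's methods, the authors aligned reads to mm10 with Bowtie 1.1.1, called peaks with HOMER and kept those reproducible between replicates, so the deposited lists hold no value per replicate. The deposited peak score is the authors' own score, and the deposited distance to the nearest start is in bases. Read depth was not used, and a shorter list cannot be told apart from lower depth or enrichment.

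Peaks were handled with Python 3.11.15, pandas 2.3.3, numpy 2.4.6 and scipy 1.17.1. Overlap meant 1 shared base or more, and promoter meant HOMER's annotation. Genes were from GENCODE M21. Strings were searched exactly, on both strands, in the 200 bp around each centre on the 21 named chromosomes, which leaves out 122 peaks. The ETS string GAGGAAG, its letters set after the lists had been read, the GATA, MYB and CTCF strings were also searched. Functions were checked on simulated peaks. The members, gene lists and comparisons were chosen with earlier results of these data known. Named were all RUNX1, Notch1-IC and guide peaks, except around Ptcra, where the 8 highest-scored RUNX1 peaks of LP and of Phase 1 and stage-specific ones of 30 or more were, and other factors' peaks that overlapped these, lay within 1 kb of a start or were among the 3 highest-scored of a list. A stage-specific RUNX1 peak near Ptcra and a CTCF peak in Rag1 were named after their values were seen. Alternatives were 50 kb windows, a minimum score of 30, overlap of 0.5 of the shorter peak, RUNX1 lists without promoters, lists of equal length, a 300 bp search and other RBPJ strings.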

Additional observations from a re-analysis of the deposited data

How the results depend on the processing

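No paired analysis was possible because the replicates were combined in each list, and leaving out a replicate was not possible for the same reason. Of 25 counts under 84 alternative values, 49 stayed within 1.5 times the reported count and 35 did not. Most of these follow from counting fewer peaks.

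With 50 kb windows, all Ptcra peaks fell to 73, Phase 1-only RUNX1 peaks to 3, LP-only Med12 to 1, Phase 1-only Med12 to 3, Phase 1-only p300 to 5, Phase 1 RUNX1 with CTCF to 1, RUNX1 with Med12 to 12 in LP and 11 in Phase 1, RUNX1 with p300 to 12 and 13, Med12 peaks shared by sgCont and sgCbfb to 3 in either direction, Phase 1 sgCont RUNX1 found with sgMed12 to 0 and LP Notch1-IC to 1. At a minimum score of 30, all Rag peaks fell to 46, LP-only RUNX1 to 1, Phase 1-only RUNX1 to 2, LP-only CTCF to 1, LP-only Med12 to 2, RUNX1 found again with sgCTCF or sgMed12 to 0, LP Notch1-IC to 0 and Phase 2 Notch1-IC to 1, which left the Notch1-IC peak before Rag2 and removed both at Ptcra. With lists of equal length, Phase 1-only RUNX1 fell to 2 and Phase 1-only Med12 to 3. With overlap of 0.5 of the shorter peak, Phase 1 RUNX1 with CTCF fell to 1. Without promoter peaks, RUNX1 with CTCF was 0 in LP and 1 in Phase 1, with Med12 9 and 10, and with p300 10 and 13. Searching 300 bp raised RUNX1 peaks with a RUNX string from 4 to 7, and the 3 gained lay around Ptcra. The 6-letter core and the form CTGGGAA, both added after the data were seen, raised Phase 2 Notch1-IC peaks with an RBPJ string from 0 to 3.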
